A study of Homo sapiens with 4 samples.

Results

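The subject is a set of 10 genes of innate nucleic acid sensing, taken by symbol from the 78932 gene rows of a count table of RPMI 8226 cells, an established human multiple myeloma line. They comprise 8 sensors and the adaptors MAVS and STING1, with RIGI formerly named DDX58 and STING1 formerly TMEM173. The cells had been transfected with a locked nucleic acid (LNA) antisense oligonucleotide, a short modified DNA strand that lowers the RNA it pairs with. The groups were LINC01432 LNA (50 nM, 2 libraries), directed against a long intergenic noncoding RNA, and control LNA (2 libraries, its dose not given separately), both sequenced 72 h after transfection. All libraries came from this 1 line, and the titles name 1 oligonucleotide per group. Lowering of LINC01432 and any other property of that oligonucleotide therefore cannot be told apart.

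Cells detect foreign or misplaced nucleic acids with receptors placed in the cytosol and in endosomes. RIG-I and MDA5 bind viral RNA in the cytosol and pass the signal through MAVS on mitochondria, while cGAS binds DNA and makes a cyclic dinucleotide that activates STING at the endoplasmic reticulum. TLR7 and TLR9 read RNA and DNA inside endosomes of B cells and plasmacytoid dendritic cells, and several of these sensor genes are themselves induced by interferon.

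The libraries held 20873393 and 26185342 gene counts with LINC01432 LNA and 29161298 and 24493148 with control LNA. LINC01432 itself had 9 and 9.9 counts per 1000000 (CPM, scaled by TMM) with LINC01432 LNA, against 20.5 and 17.9 CPM with control LNA, so that 49.2% of the control level was left (edgeR adjusted p = 0.000228). Counts of the LINC01432 LNA pair differed by 12.4 times the variance that counting alone gives, and those of the control pair by 3.85 times. Between a LINC01432 LNA and a control library the figure was 18.2 to 35.9. The labels do not state whether each library had a culture of its own. All p-values therefore measure library-to-library spread, which may be technical. All 14 plasma cell and myeloma markers looked up were tested, with a summed level of 3020 and 3440 CPM with LINC01432 LNA and of 3460 and 3680 CPM with control LNA. Of these 14, 1 rose and 4 fell, where 7.5% of all tested genes rose and 4.37% fell. Markers of other cells are given as summed CPM in the same way. Those of monocytes, macrophages and conventional dendritic cells came to 8.34 and 10.6 CPM with LINC01432 LNA and 8.38 and 9.05 CPM with control LNA, with LYZ, S100A8 and CD1C listed at 0. Those of T and NK cells came to 2.47 and 3.21 CPM with LINC01432 LNA and 2.09 and 2.16 CPM with control LNA, and those of fibroblasts and endothelial cells to 6.29 and 7.65 CPM with LINC01432 LNA and 4.67 and 4.77 CPM with control LNA. Markers of plasmacytoid dendritic cells, which also use TLR7 and TLR9, summed to 406 and 382 CPM with LINC01432 LNA and 424 and 417 CPM with control LNA, mostly TCF4, with IL3RA listed at 0. The 4 tested markers of naive and memory B cells summed to 21.6 and 23.4 CPM with LINC01432 LNA and 29.1 and 29.1 CPM with control LNA, both LINC01432 LNA libraries being lower. Epithelial markers, mostly EPCAM and KRT18, summed to 99.8 and 99.3 CPM with LINC01432 LNA and 118 and 114 CPM with control LNA. In these other lists IRF8 (plasmacytoid dendritic cells) and COL1A1 (fibroblasts) rose, CR2 (B cells) and FCGR1A (monocytes) fell, all 4 named after their values were seen, and no further marker passed. The part of any of these in the results was not tested.

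Of the 10 genes, 9 had enough counts to be tested and TLR9 was listed at 0 throughout. With LINC01432 LNA 6 rose (RIGI, IFIH1, DHX58, CGAS, AIM2 and TLR7), MAVS fell, and EIF2AK2 and STING1 did not pass (edgeR quasi-likelihood test on all genes, Benjamini-Hochberg adjusted p under 0.05). Of all 18680 tested genes 11.9% passed, 7.5% as higher and 4.37% as lower, and the median log2 fold change was 0.69 over the 9 tested members and 0.01 over all tested genes. That background depends on the libraries: 5228 and 4328 genes passed without LINC01432 LNA library 1 or 2, and 766 and 1085 without control library 1 or 2. It also depends on base composition, since 63.2% of the genes that passed were higher as counted and 47.6% after a correction for GC content. The libraries of the groups did not overlap for 8 of the 9 tested members, where this held for 54.1% of all tested genes. RNA was measured in bulk, so that fewer cells of a type and less RNA per cell cannot be told apart.

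**Figure D1:**
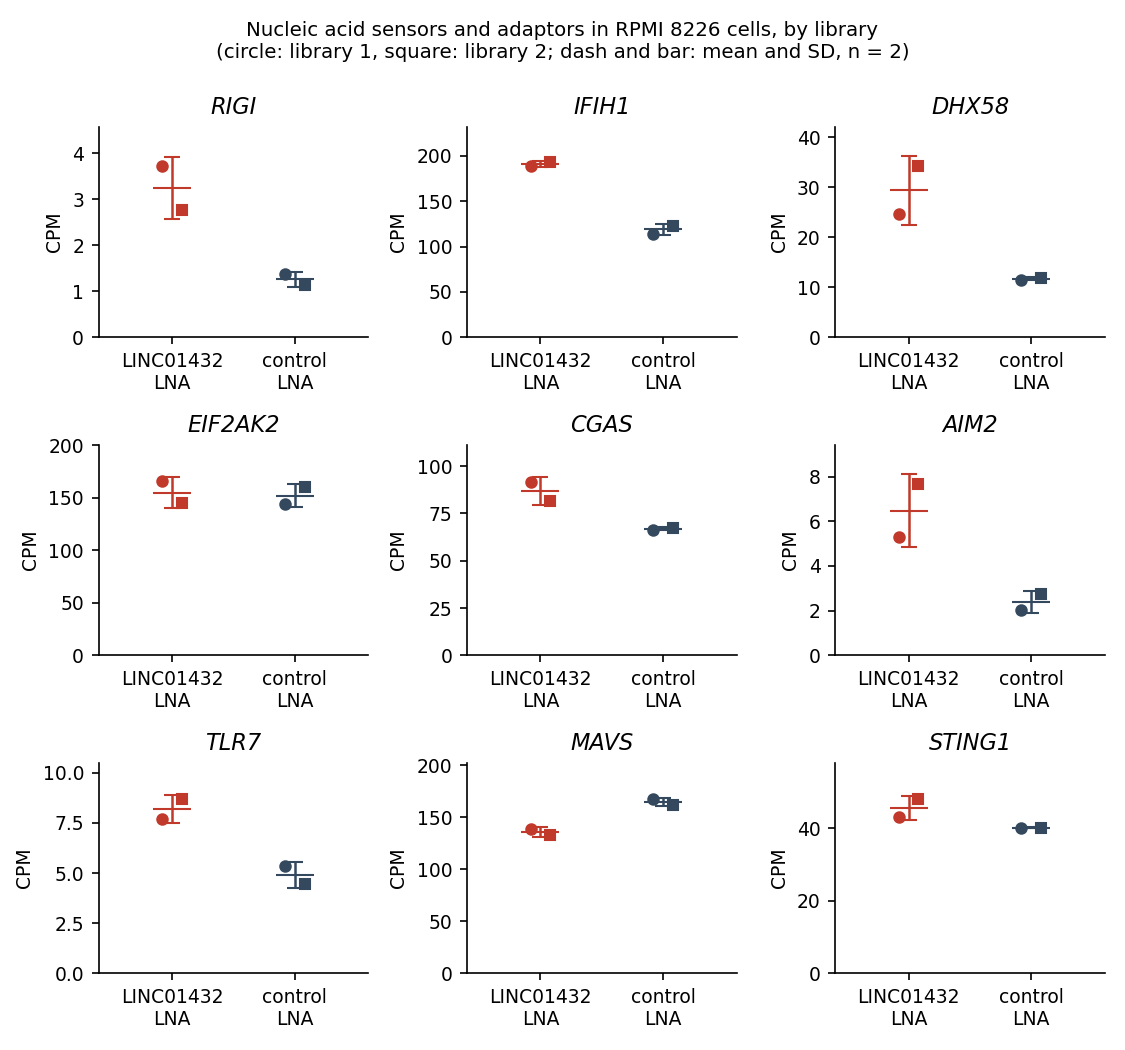
Level of each tested gene in CPM (vertical axis, from 0, a separate scale per gene) in the 2 LINC01432 LNA libraries (left) and the 2 control LNA libraries (right). Circles and squares are libraries 1 and 2, and dashes with bars are the mean and SD. The groups overlap for EIF2AK2 alone; for MAVS the LINC01432 LNA libraries (139 and 133 CPM) lie below the controls (168 and 162 CPM).

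Of the 4 cytosolic RNA sensors, RIGI, IFIH1 and DHX58 rose and EIF2AK2 did not pass. RIGI (ENSG00000107201, chromosome 9 from 32455705 to 32526324 on GRCh38, minus strand) encodes RIG-I, a helicase that binds short RNA with a triphosphate end. It had 80 and 70 counts with LINC01432 LNA and 40 and 28 with control LNA. These were 3.73 and 2.77 CPM with LINC01432 LNA and 1.37 and 1.14 CPM with control LNA, with both LINC01432 LNA libraries above both controls. RIGI rose 2.55-fold (95% interval 1.74 to 3.74; log2 fold change 1.35, SE 0.25, edgeR adjusted p = 0.00538). The interval is the widest among the 9 tested members, and the counts were low, with 72.3% of tested genes above it in the controls.

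IFIH1 (ENSG00000115267, chromosome 2 from 162267079 to 162318703, minus strand) encodes MDA5, a related helicase that binds long RNA duplexes. Its level was 189 and 193 CPM with LINC01432 LNA and 114 and 123 CPM with control LNA, again without overlap. IFIH1 rose 1.61-fold (95% interval 1.43 to 1.82; log2 0.69, SE 0.08, edgeR adjusted p = 0.000285). With 3013 to 4880 counts per library it had, on the log2 scale, the narrowest interval of the 6 members that rose (0.52 to 0.86).

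DHX58 (ENSG00000108771, chromosome 17 from 42101404 to 42112733, minus strand) encodes LGP2, a helicase of the same family that lacks the signalling domains of RIG-I and MDA5 and modulates them. It stood at 24.6 and 34.3 CPM with LINC01432 LNA and at 11.5 and 11.9 CPM with control LNA. The LINC01432 LNA libraries differed from each other more than the controls did, yet both lay above both controls. DHX58 rose 2.52-fold (95% interval 2.03 to 3.12; log2 1.33, SE 0.14, edgeR adjusted p = 0.000172), by a log2 of 1.53 without LINC01432 LNA library 1 and of 1.05 without library 2. Only 1.52% and 1.56% of tested genes had a higher log2 fold change than RIGI and DHX58, against 7.76% for IFIH1.

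EIF2AK2 (ENSG00000055332, chromosome 2 from 37099210 to 37157065, minus strand) encodes PKR, a kinase that is activated by RNA duplexes and halts translation by phosphorylating eIF2 alpha. Its level was 166 and 145 CPM with LINC01432 LNA and 144 and 160 CPM with control LNA, and the groups overlapped. The ratio was 1.03 with a 95% interval of 0.892 to 1.18 (log2 0.04, SE 0.09, edgeR adjusted p = 0.859). That interval lies below the lower bounds of the intervals of RIGI, IFIH1 and DHX58, although the differences between genes were not tested. Its direction was not stable: the log2 fold change was -0.06 without control library 1 and -0.08 without LINC01432 LNA library 1. After GC correction EIF2AK2 had a log2 fold change of 0.16 and was still not called (SE 0.07, edgeR adjusted p = 0.207). Of its exonic bases 4.05% overlap other genes, on the opposite strand.

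**Figure D2:**
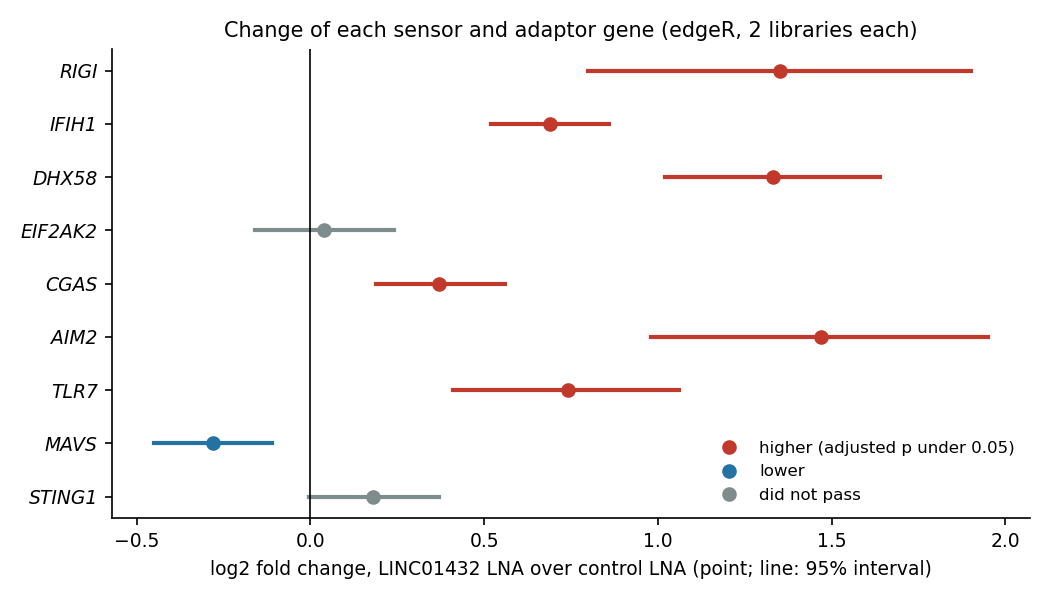
Log2 fold change of LINC01432 LNA over control LNA (horizontal axis) for the 9 tested genes, with 95% intervals from the edgeR fit. RIGI, DHX58 and AIM2 lie above 1, MAVS lies below 0, and the intervals of EIF2AK2 (-0.16 to 0.24) and STING1 (-0.004 to 0.37) include 0.

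RefSeq promoter windows on GRCh38.p14, from 250 bases before to 50 bases after a gene's start, were matched for 6 of the 10 genes. DHX58, the remaining cytosolic RNA sensor, which rose, had no window in the source used, nor had CGAS, STING1 or TLR7. The windows of 3 RNA sensors are shown because these genes share a role while RIGI and IFIH1 rose and EIF2AK2 did not pass. Each reads 5′ to 3′ on the gene's strand, with the start at position 0, and capitals mark motif matches on either strand. They lie at chr9:32526147-32526446, chr2:162318635-162318934 and chr2:37156931-37157230, all on the minus strand.
RIGI: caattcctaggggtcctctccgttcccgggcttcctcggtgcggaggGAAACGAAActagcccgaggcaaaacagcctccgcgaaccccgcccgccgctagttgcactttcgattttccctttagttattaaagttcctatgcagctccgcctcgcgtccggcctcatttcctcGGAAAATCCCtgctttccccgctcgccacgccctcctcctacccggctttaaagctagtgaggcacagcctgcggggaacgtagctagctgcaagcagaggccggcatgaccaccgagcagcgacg
IFIH1: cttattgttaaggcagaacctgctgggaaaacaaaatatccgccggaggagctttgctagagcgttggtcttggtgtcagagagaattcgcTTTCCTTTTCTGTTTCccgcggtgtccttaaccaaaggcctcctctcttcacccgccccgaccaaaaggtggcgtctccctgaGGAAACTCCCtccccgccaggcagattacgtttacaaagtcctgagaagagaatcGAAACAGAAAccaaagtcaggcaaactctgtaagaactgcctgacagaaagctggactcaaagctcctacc
EIF2AK2: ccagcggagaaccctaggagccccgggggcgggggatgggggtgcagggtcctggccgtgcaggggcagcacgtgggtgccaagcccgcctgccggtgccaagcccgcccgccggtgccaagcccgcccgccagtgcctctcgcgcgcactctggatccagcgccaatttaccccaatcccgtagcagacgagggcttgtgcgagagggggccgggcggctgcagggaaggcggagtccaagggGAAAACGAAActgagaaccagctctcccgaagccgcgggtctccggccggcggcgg

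The letters searched for the core of the interferon-stimulated response element (ISRE) were GAAANNGAAA, which 3.57% of 34943 promoter windows hold on either strand. IFIH1 held 3 such matches, at -159 to -150 and -153 to -144 (overlapping each other) and at -21 to -12. EIF2AK2 held 1, across its start from -6 to 3. RIGI held no match to these letters but has the same blocks with 1 base between them (GAAANGAAA, a form added after the sequences were read, found in 3.12% of windows) at -203 to -195. Letters of the kappa B site (GGGANNTTCC, in 1.61% of windows) occurred in RIGI and in IFIH1, in both at -76 to -67, and the gamma-activated site (TTCNNNGAA, in 7.66% of windows) in none of the 6 windows. A match describes letters and shows no binding, and each window rests on 1 annotated start per gene. Both IFIH1, which rose, and EIF2AK2, which did not pass, thus carry the ISRE letters.

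**Figure D3:**
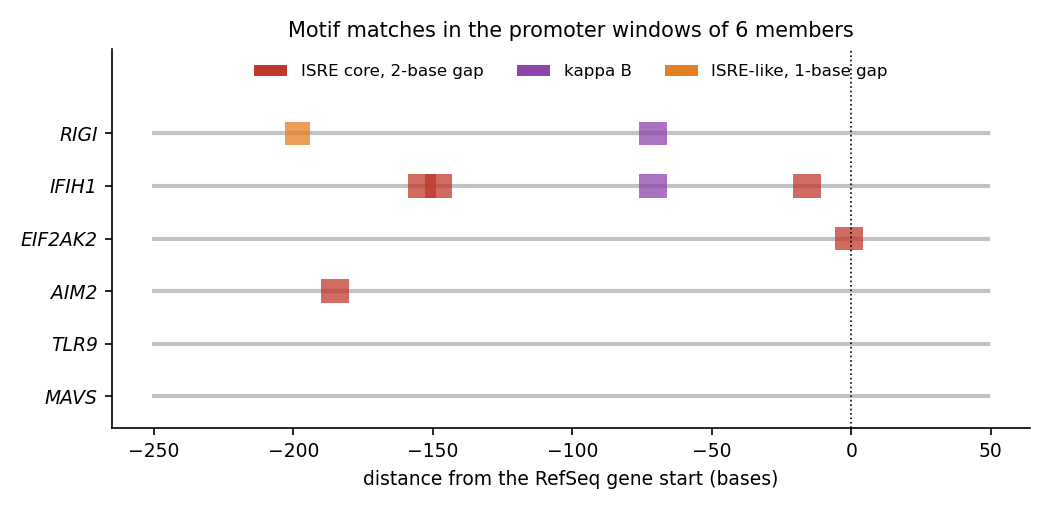
Motif matches (coloured blocks) along the promoter windows of the 6 members with a RefSeq window, by distance in bases from the gene's start (0, dotted). IFIH1 has 3 matches to the ISRE core, AIM2 and EIF2AK2 have 1 each, RIGI has the form with a 1-base gap, and TLR9 and MAVS have no match to the motifs searched.

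Both cytosolic DNA sensors rose. CGAS (ENSG00000164430, chromosome 6 from 73413515 to 73452276, minus strand) encodes the DNA-activated enzyme cGAS. It had 91.9 and 81.5 CPM with LINC01432 LNA and 66.3 and 67.5 CPM with control LNA, without overlap. CGAS rose 1.3-fold (95% interval 1.14 to 1.47; log2 0.37, SE 0.08, edgeR adjusted p = 0.0153). The call was lost without control library 1 (log2 0.34, edgeR adjusted p = 0.333) and without control library 2 (log2 0.37, edgeR adjusted p = 0.235), fits in which the spread comes from the LINC01432 LNA pair alone. Of its exonic bases 4.33% overlap DDX43 on the opposite strand.

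AIM2 (ENSG00000163568, chromosome 1 from 159062484 to 159147096, minus strand) encodes a cytosolic DNA receptor that assembles the caspase-1 inflammasome. It had 114 and 193 counts with LINC01432 LNA and 59 and 67 with control LNA, which is 5.31 and 7.65 CPM with LINC01432 LNA and 2.03 and 2.73 CPM with control LNA. The groups did not overlap. AIM2 rose 2.76-fold (95% interval 1.98 to 3.86, log2 1.47, SE 0.22, edgeR adjusted p = 0.00154), the highest ratio of the 9 tested genes with all 4 libraries. It stayed between a log2 of 1.15 and 1.68 when any library was left out, but its rank did not hold. Without LINC01432 LNA library 2 RIGI had 1.54 and AIM2 1.15. Without control library 1 RIGI had 1.48, DHX58 1.29 and AIM2 1.24. Only 1.18% of tested genes had a higher log2 fold change.

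The promoter window of AIM2, at chr1:159076717-159077016 on the minus strand of GRCh38.p14, is shown because its gene had the highest ratio with all libraries. It carries the ISRE letters at -190 to -181 on the other strand. GENCODE 29 extends the gene farther upstream, so this start is not the only one annotated.
AIM2: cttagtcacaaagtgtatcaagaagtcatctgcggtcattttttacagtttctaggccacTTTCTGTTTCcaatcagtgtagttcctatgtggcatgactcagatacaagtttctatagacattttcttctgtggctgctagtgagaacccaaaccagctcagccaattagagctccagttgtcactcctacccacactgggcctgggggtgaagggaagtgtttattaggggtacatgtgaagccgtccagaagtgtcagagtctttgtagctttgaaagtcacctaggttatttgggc

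Of the endosomal sensors, TLR7 was measured and TLR9 was not. TLR7 (ENSG00000196664, chromosome X from 12867083 to 12890380, plus strand) is a receptor for single-stranded RNA. It had 165 and 219 counts with LINC01432 LNA and 156 and 109 with control LNA, which is 7.69 and 8.68 CPM with LINC01432 LNA and 5.36 and 4.44 CPM with control LNA, without overlap. TLR7 rose 1.67-fold (95% interval 1.33 to 2.09; log2 0.74, SE 0.15, edgeR adjusted p = 0.00835). Without control library 2 the log2 fold change was 0.60 and the call was lost (edgeR adjusted p = 0.0747).

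TLR9 (ENSG00000239732, chromosome 3 from 52221080 to 52226163, minus strand), the receptor for DNA with unmethylated CpG, was listed at 0 in all 4 libraries. A count of 0 would allow up to 0.144 and 0.115 CPM with LINC01432 LNA and 0.103 and 0.122 CPM with control LNA (3 counts, counting error only). However, 86.3% of the exonic bases of TLR9 are shared with ENSG00000173366, a gene on the same strand that was also listed at 0. Reads from shared bases may have been left unassigned, so neither the level of TLR9 nor any change can be read from these counts.

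Of the adaptors of the cytosolic sensors, MAVS fell and STING1 did not pass. MAVS (ENSG00000088888, chromosome 20 from 3846799 to 3876123, plus strand), on which RIG-I and MDA5 converge, had 139 and 133 CPM with LINC01432 LNA and 168 and 162 CPM with control LNA, with both LINC01432 LNA libraries below both controls. MAVS fell to 0.823 of its control level (95% interval 0.732 to 0.927; log2 -0.28, SE 0.08, edgeR adjusted p = 0.0382). It was not called without control library 1 (log2 -0.27, edgeR adjusted p = 0.528) or without control library 2 (log2 -0.32, edgeR adjusted p = 0.404).

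STING1 (ENSG00000184584, chromosome 5 from 139475534 to 139482935, minus strand), the adaptor activated by the product of cGAS, had 43.2 and 48.1 CPM with LINC01432 LNA and 40.2 and 40.2 CPM with control LNA. The libraries did not overlap, but the ratio of 1.14 (95% interval 0.997 to 1.29; log2 0.18, SE 0.09) did not pass (edgeR adjusted p = 0.205). It was called without LINC01432 LNA library 1 (log2 0.24, edgeR adjusted p = 0.0103), and its log2 fold change was 0.08 once corrected for GC content.

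Levels of different genes were compared as CPM per kilobase of exon, using all exons of a gene in GENCODE 29. The counts include genes absent from that release, so the exons counted may differ from those used for the lengths. With LINC01432 LNA the order from high to low was IFIH1 (37.5 ± 0.545, SD, n = 2), CGAS (20.9 ± 1.77), EIF2AK2 (14.5 ± 1.36), STING1 (11.9 ± 0.89), MAVS (11.5 ± 0.388), DHX58 (7.65 ± 1.79), AIM2 (3.23 ± 0.821), TLR7 (1.57 ± 0.134) and RIGI (0.747 ± 0.155). With control LNA it was IFIH1 (23.2 ± 1.16), CGAS (16.1 ± 0.213), EIF2AK2 (14.1 ± 1.05), MAVS (14 ± 0.322), STING1 (10.4 ± 0.00829), DHX58 (3.06 ± 0.074), AIM2 (1.18 ± 0.248), TLR7 (0.941 ± 0.124) and RIGI (0.289 ± 0.0378). STING1 and MAVS were within their spread of each other with LINC01432 LNA, as were EIF2AK2 and MAVS, and AIM2 and TLR7, with control LNA. The transcript of MDA5 thus far exceeded that of RIG-I per kilobase, 43.3-fold and 59.4-fold with LINC01432 LNA and 71-fold and 91.7-fold with control LNA. The CGAS level was 8.36 and 5.15 times that of AIM2 with LINC01432 LNA and 15.8 and 12 times with control LNA.

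**Figure D4:**
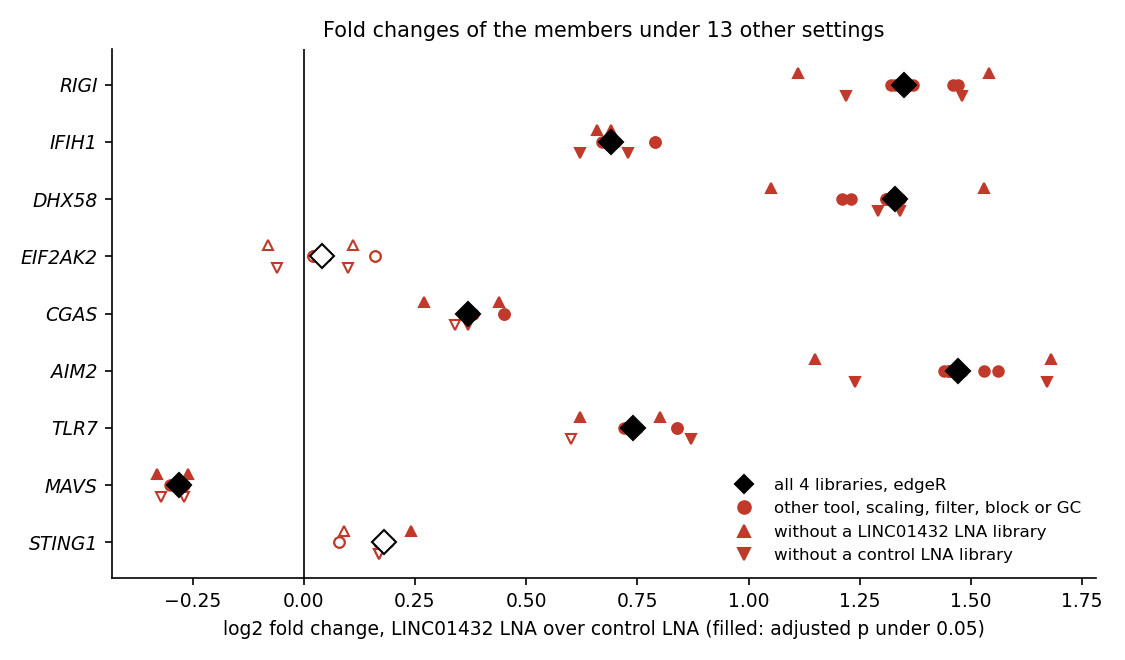
Log2 fold change of LINC01432 LNA over control LNA (horizontal axis) for each tested gene with all libraries (black diamonds) and under 13 other settings (red). Filled symbols have an adjusted p under 0.05. RIGI, IFIH1, DHX58 and AIM2 are filled under all 13, while CGAS, TLR7 and MAVS have open symbols where a control LNA library was left out.

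Around the members, 202 other genes of the same pathways were looked up, of which 184 were tested. Some genes stand on more than 1 list and are counted once here. Of these, 35 rose and 12 fell, a share of 25.5% with a median log2 fold change of 0.04 (all genes: 11.9% and 0.01). Without LINC01432 LNA library 1 or 2 the counts were 63 and 42 higher and 30 and 42 lower. Without control library 1 or 2 they were 18 and 26 higher and 3 and 2 lower. The 26 and 20 pathway genes that lost their call without control library 1 or 2 kept their direction, and their log2 fold changes moved by a median of 0.03 and 0.02 and by at most 0.16 and 0.10. The 10 that lost it after GC correction kept a median of 56.2% of their log2 fold change, with a median move of 0.15 and a largest of 0.45. The lists were chosen with earlier results of these data known, and their shares describe the lists without testing them.

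Other nucleic acid sensors gave the largest share, with 10 of 25 tested genes higher, 1 lower and 14 not passing, and a median log2 fold change of 0.19. That share was 44%, where 11.9% of all tested genes passed. IFIT1, which binds RNA without a fully methylated cap, had 140 and 159 CPM with LINC01432 LNA and 51.1 and 65.7 CPM with control LNA. It rose 2.57-fold (edgeR adjusted p = 4.17e-05). OASL and OAS3, of the oligoadenylate synthetase family, rose 2.66-fold and 1.95-fold, and ZNFX1, a helicase that detects viral RNA, rose 1.74-fold (edgeR adjusted p = 0.000217, 0.000371 and 0.00012). The gene that fell was MRE11, a nuclease of DNA break repair that also binds cytosolic DNA (0.692 times the control level, edgeR adjusted p = 0.00312; named after its value was seen). Without LINC01432 LNA library 2, 19 genes of the list passed, and without control library 1, 8 passed. OAS1, OAS2 and DDX60L were then not called (edgeR adjusted p = 0.0681 to 0.347, log2 fold changes 0.40 to 0.53).

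Among regulators of RIG-I and MDA5 and partners of MAVS, 4 of 34 tested genes rose, 2 fell and 28 did not pass (median log2 fold change 0.06). Those called made up 17.6% of the list, against a background of 11.9%. IFIT3, which links MAVS to the kinase TBK1, rose to 270 ± 36.6 CPM with LINC01432 LNA, against 78.7 ± 13.8 CPM with control LNA (SD, n = 2; 3.43-fold, edgeR adjusted p = 1.27e-05). NLRC5, a regulator of MHC class I genes and of innate signalling, rose 1.42-fold and TRADD, an adaptor in the MAVS complex, 1.44-fold (edgeR adjusted p = 0.00195 and 0.0216). RNF125, a ubiquitin ligase that marks RIG-I and MDA5 for degradation, fell to 7.74 ± 0.919 CPM with LINC01432 LNA, against 13 ± 0.121 CPM with control LNA (0.595 times, edgeR adjusted p = 0.00243). Named after their values were seen, PRKRA, an activator of PKR that also aids RIG-I, rose 1.3-fold and MFN1, a mitochondrial fusion protein, fell to 0.806 times its control level (edgeR adjusted p = 0.0271 and 0.0298). Without control library 1, NLRC5, TRADD, PRKRA and MFN1 were not called (edgeR adjusted p = 0.0852 to 0.305), and without control library 2 NLRC5, PRKRA and MFN1 were not (0.0801 to 0.461). PRKRA was not called when scaled by library totals alone (edgeR adjusted p = 0.0664) or by DESeq2 (adjusted p = 0.0831). GC correction ended the calls of TRADD and MFN1 (edgeR adjusted p = 0.116 to 0.597), and the list had 16 and 10 genes called without LINC01432 LNA library 1 and 2, and 2 and 3 without control library 1 and 2.

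Regulators of cGAS and STING included 6 that passed, with 5 of 26 tested genes higher, 1 lower and 20 not passing, and a median log2 fold change of -0.07. The 6 were 23.1% of those tested, against a background of 11.9%. USP18, a protease that removes ISG15, had 27.9 and 37.6 CPM with LINC01432 LNA and 11.3 and 12.4 CPM with control LNA and rose 2.78-fold (edgeR adjusted p = 6.85e-05). TRIM56, a ubiquitin ligase that acts on cGAS and STING, rose 1.5-fold and SLC19A1, a folate carrier that imports cyclic dinucleotides, 1.49-fold (edgeR adjusted p = 0.000945 and 0.0025), although 14% of the exonic bases of SLC19A1 overlap other genes. STEEP1, which aids the exit of STING from the endoplasmic reticulum, fell to 0.789 times its control level (edgeR adjusted p = 0.0225). TRIM21, a ubiquitin ligase that binds antibodies in the cytosol, and IFI35, an interferon-induced protein, named after their values were seen, rose 1.36-fold and 1.33-fold (edgeR adjusted p = 0.0227 and 0.0358). Without control library 1 USP18 alone of these 6 was called, the others having an edgeR adjusted p of 0.0705 to 0.456; without control library 2 STEEP1 and IFI35 were lost (0.128 to 0.218), and GC correction ended the calls of SLC19A1 and IFI35 (0.054 to 0.108). The list had 11 and 13 genes called without LINC01432 LNA library 1 and 2, and 1 and 4 without control library 1 and 2.

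The machinery of the endosomal receptors moved in both directions, with 3 of 28 tested genes higher, 4 lower and 21 not passing, and a median log2 fold change of 0.04. In all 25% passed, against a background of 11.9%. TICAM1, which encodes TRIF, the adaptor of TLR3, rose 1.6-fold to 56.6 ± 4.35 CPM with LINC01432 LNA, against 35.5 ± 0.75 CPM with control LNA (SD, n = 2; edgeR adjusted p = 0.000556). CTSB, a lysosomal protease, fell to 0.73 times, HSP90B1, the chaperone that folds Toll-like receptors, to 0.77 times, and AP3B1, a sorting adaptor subunit, to 0.777 times the control level (edgeR adjusted p = 0.00891, 0.0108 and 0.0121). Named after their values were seen, MYD88, the adaptor of TLR7 and TLR9, rose 1.33-fold, HGS, an endosomal sorting protein, rose 1.25-fold and BTK, a kinase that acts with these receptors in B cells, fell to 0.558 times its control level at 2.2 CPM, against 3.94 CPM (edgeR adjusted p = 0.0141, 0.0266 and 0.0206). Of these 7, TICAM1 and BTK alone were called without control library 1 and TICAM1 alone without control library 2, with the others at an edgeR adjusted p of 0.215 to 0.515 and of 0.102 to 0.41. Of the exonic bases of HGS 23.5% overlap other genes. BTK was not called by DESeq2 (adjusted p = 0.0517) nor HGS after GC correction (edgeR adjusted p = 0.546). TICAM1 was still called after GC correction, but its log2 fold change was 0.33, against 0.68 as counted. The list had 16 and 13 genes called without LINC01432 LNA library 1 and 2, and 2 and 2 without control library 1 and 2.

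Of 15 shared kinases and transcription factors, 4 rose, 0 fell and 11 did not pass (median log2 fold change 0.16). Called genes were 26.7% of this list and 11.9% of all tested genes. IRF7, a factor that turns on interferon genes, had 227 and 273 CPM with LINC01432 LNA and 80 and 94.2 CPM with control LNA and rose 2.87-fold (edgeR adjusted p = 1.46e-05); its log2 fold change was 1.52 as counted and 0.94 after GC correction, still called. NFKB2, a subunit of NF-kappa B, rose 1.93-fold (edgeR adjusted p = 0.000159). IKBKE, a kinase next to TBK1, rose 1.37-fold and IRF5, a factor downstream of TLR7, 1.31-fold (edgeR adjusted p = 0.00707 and 0.00849). The log2 fold changes of NFKB2 and IKBKE were 0.95 and 0.46 as counted. After GC correction they were 0.70 and 0.32, both still called. IKBKE and IRF5 were not called without control library 1 (edgeR adjusted p = 0.123 to 0.238) or 2 (0.106 to 0.251), nor was IRF5 after GC correction (0.0546), and without LINC01432 LNA library 1 the list had 7 genes called.

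The AIM2 inflammasome list had 11 of 20 genes tested, of which 1 rose, 0 fell and 10 did not pass, a share of 9.09% against the background of 11.9%. These 11 include POP1, which did not pass and whose symbol denotes an RNase P subunit outside the inflammasome. PYCARD, IL1B and IL18 were on the list but not among the genes tested. GSDMD, whose product forms the pore of pyroptosis, rose 1.28-fold (edgeR adjusted p = 0.0306), but its log2 fold change of 0.36 was -0.09 after GC correction and the call was lost without either control library (edgeR adjusted p = 0.318 to 0.323). CASP1, the protease that AIM2 activates, had 21.9 ± 4.57 CPM with LINC01432 LNA and 16.5 ± 1.46 CPM with control LNA (SD, n = 2) and did not pass (log2 0.42, edgeR adjusted p = 0.0663). CARD16 and CARD8 did not pass either (edgeR adjusted p = 0.176 and 0.204), and reads of CARD16 may be shared with CASP1, a close copy. The list had 6 genes called without LINC01432 LNA library 1.

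Around PKR and eIF2 alpha, 5 of 23 tested genes rose, 1 fell and 17 did not pass (median log2 fold change -0.03). This is a share of 26.1% against the background of 11.9%. The list also covers the other eIF2 alpha kinases, so the share is not particular to PKR. PPP1R15A, the phosphatase subunit GADD34 that reverses eIF2 alpha phosphorylation, had 19 and 25.2 CPM with LINC01432 LNA and 12.3 and 11.2 CPM with control LNA and rose 1.88-fold (edgeR adjusted p = 0.00125). TRIB3, DDIT3 and ATF4, genes of the integrated stress response, rose 1.58-fold, 2.28-fold and 1.34-fold (edgeR adjusted p = 0.00131, 0.00232 and 0.0117), with 39.6% of the exonic bases of DDIT3 overlapping other genes. PRKRA is named above, and DNAJC3, an inhibitor of PKR named after its value was seen, fell to 0.801 times its control level (edgeR adjusted p = 0.0224). ATF4, DNAJC3 and PRKRA were not called without control library 1 (edgeR adjusted p = 0.304 to 0.329) or 2 (0.193 to 0.304), where their log2 fold changes moved by at most 0.04 and 0.02. DNAJC3 was not called after GC correction either (log2 -0.20, edgeR adjusted p = 0.126). The list had 11 and 13 genes called without LINC01432 LNA library 1 and 2, and 3 and 3 without control library 1 and 2.

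Of 28 tested nucleases and editing enzymes that keep self nucleic acids from the sensors, or act on viral ones, 4 rose, 3 fell and 21 did not pass (median log2 fold change 0.06). Here 25% passed, against 11.9% of all tested genes. ZC3H12A, an RNase that limits inflammatory transcripts, rose 2.89-fold, with 27.8 and 36.5 CPM with LINC01432 LNA and 11.2 and 11.1 CPM with control LNA (edgeR adjusted p = 3.62e-05). ISG20, an interferon-induced exonuclease, rose 2.11-fold and RNASET2, an endolysosomal RNase, 1.71-fold (edgeR adjusted p = 0.0005 and 0.00187). RNASEH1, the enzyme that cuts RNA paired with DNA, also in antisense treatment, had 35.8 and 33.2 CPM with LINC01432 LNA and 45.6 and 44 CPM with control LNA and fell to 0.769 times its control level (edgeR adjusted p = 0.0138). Named after their values were seen, ADARB1, an RNA-editing deaminase, and SKIC3, of the RNA-degrading SKI complex, fell to 0.782 and 0.813 times their control levels, and RNASEH2C, a subunit of RNase H2, rose 1.26-fold (edgeR adjusted p = 0.0255, 0.0342 and 0.0401). RNASEH1, ADARB1, SKIC3 and RNASEH2C were not called without control library 1 (edgeR adjusted p = 0.232 to 0.481) or 2 (0.0728 to 0.352), RNASEH2C was not called without LINC01432 LNA library 2 (0.0543), and GC correction ended the calls of SKIC3 and RNASEH2C (0.0592 to 0.137). SKIC3 was not called when scaled by library totals alone (edgeR adjusted p = 0.0519), nor RNASEH2C with DESeq2's size factors (edgeR adjusted p = 0.052) or by DESeq2 itself (adjusted p = 0.0642). Of the exonic bases of RNASEH2C 28.2% overlap other genes. The list had 15 and 12 genes called without LINC01432 LNA library 1 and 2, and 3 and 3 without control library 1 and 2.

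**Figure D5:**
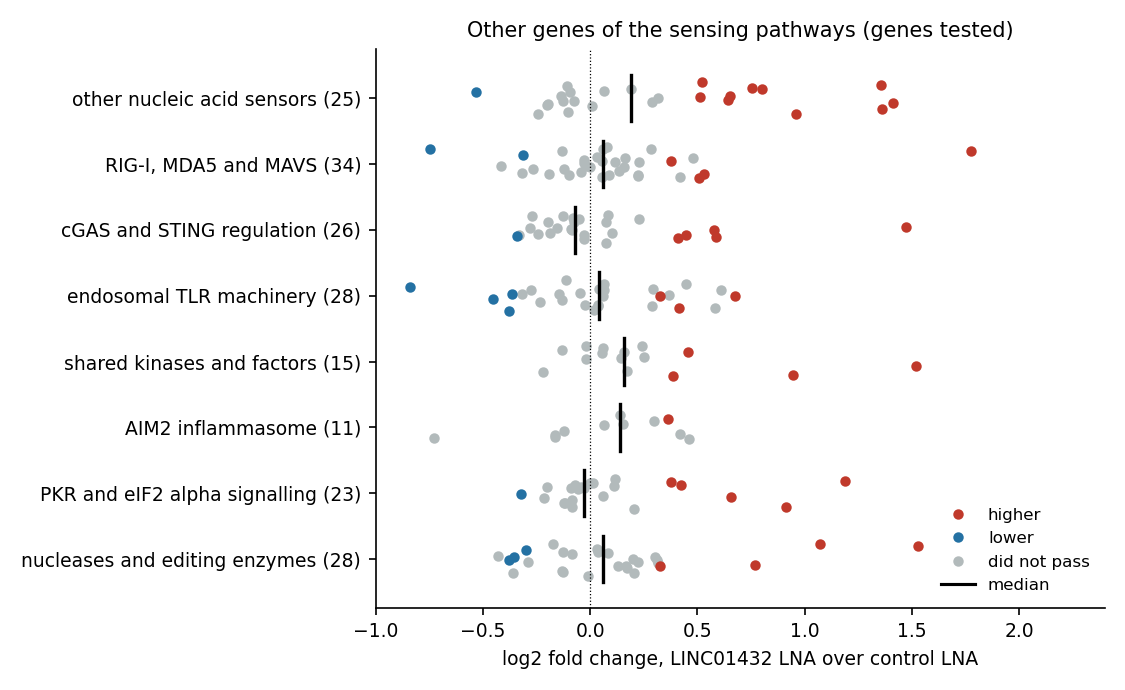
Log2 fold change of LINC01432 LNA over control LNA (horizontal axis) for the tested genes of 8 lists of other pathway genes, with the number tested in brackets; black bars are medians. Other nucleic acid sensors have the most red points (10 of 25 higher), and the AIM2 inflammasome list has 1 of 11, where 7.5% of all tested genes were higher.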

How the data were processed

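RNA-seq of 4 libraries was used. The authors deposited raw gene counts without normalization. The build GRCh38 and the tools bcl2fastq, Salmon 1.10.0, STAR 2.7.11b, Subread and featureCounts 2.0.8 are listed in the submitters' processing notes, with no role or order. Not given in the sources used here are the annotation release and the strand setting. On RNA selection the sources differ: poly(A) in the design text, removal of ribosomal RNA by RNase H in the labels' protocols. The 97 rows that are no genes (spike-in and transgene sequences, at most 4.2e-05% of a library) were left out. Symbols were found for 61535 gene IDs; positions, exons, overlaps and GC content (of transcripts, 91.3% of tested genes) come from GENCODE 29 on GRCh38, promoters from RefSeq.

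Tests used R 4.3.3 and edgeR 4.0.16: quasi-likelihood F test on all genes, TMM, filterByExpr (minimum count 10, minimum total 15), group as the only term, Benjamini-Hochberg adjusted p under 0.05, standard errors from the F statistic. The biological coefficient of variation was 7.13%. For a single gene an exact permutation test of 2 against 2 libraries has a smallest p of 0.333, so calls rest on the spread pooled across genes. Alternatives used DESeq2 1.42.0, limma 3.58.1, other scalings and filters, each library left out, the replicate number as a block, and a GC correction. For that correction each gene's log2 CPM was taken as its deviation from the gene's mean over the libraries. A lowess curve of these deviations on GC content in each library, with a span of 0.3, gave per-gene offsets. Genes without a GC value were not corrected. All members, LINC01432 and, per pathway list, up to 4 genes with the smallest p are named, with further called genes marked as such. Members and lists were chosen with earlier results of these data known. The edgeR step was checked on simulated counts with the same spread for every gene and in both groups. That check does not cover the unequal spread of the real library pairs. A count of 3 served as the floor. Figures used matplotlib 3.10.9. One marker gene is not reported here.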

Additional observations from a re-analysis of the deposited data

How the results depend on the processing

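Over 13 alternatives, 109 of 117 fold changes of the 9 tested members kept their direction and their side of the threshold. RIGI, IFIH1, DHX58 and AIM2 were called under all 13, with log2 fold changes of 1.11 to 1.54, 0.62 to 0.79, 1.05 to 1.53 and 1.15 to 1.68. Leaving out a library changed calls of CGAS (0.27 to 0.44), TLR7 (0.60 to 0.87), MAVS (-0.33 to -0.26) and STING1 (0.09 to 0.24), and EIF2AK2 (-0.08 to 0.11), never called, had -0.06 without control library 1 and -0.08 without LINC01432 LNA library 1. The count of members called lower was 0 to 1 with a library left out.

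The library left out moved counts of calls most: 766 to 5228 over all genes; 18 to 63 higher and 2 to 42 lower over all pathway genes; 8 to 19 for other sensors, 2 to 16 for regulators of RIG-I and MDA5, 1 to 13 for cGAS and STING, 2 to 16 for the endosomal machinery, 2 to 7 for kinases and factors, 0 to 6 for the inflammasome, 3 to 13 around PKR and 3 to 15 for nucleases. A fit with 1 control library takes its spread from the LINC01432 LNA pair, and the reverse, so the lone library is assumed to vary like the other group. No filter on low counts gave 2 inflammasome genes.

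The replicate numbers do not pair the libraries by any label; same-numbered deviations correlated at 0.13 over 2 pairs. With the replicate block, 3862 genes were called over all genes, 20 pathway genes lower, 13 for regulators of RIG-I and MDA5, 14 for the endosomal machinery, 2 for the inflammasome and 12 for nucleases. GC correction with the replicate block gave 3716, 24, 10, 11, 5 and 15, and 10 for cGAS and STING. Depth limits RIGI, AIM2 and TLR7 most; at the lowest they had 28, 59 and 109 counts in a library.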
